A study of Mus musculus with 30 samples.

Results

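Gene expression in libraries labelled as adipose tissue macrophages (ATMs) was compared between *Ob/Ob* recipients given the GLP-1R agonist beinaglutide and *Ob/Ob* recipients given vehicle. The comparison holds the 3 GLP-1R agonist libraries and the 3 Vehicle libraries of the ATM table, 6 of the 30 libraries of the series, with all 17059 genes of that table. The libraries were chosen by their labels and not by any measured value. The study asked whether obesity worsens the growth of blood cells that carry an activating *Shp2* mutation, and whether GLP-1R agonism, blockade of IL-17A or both together (Combo) oppose this. RNA of BM and of ATMs was sequenced from WT recipients and from *Ob/Ob* recipients given vehicle, the agonist, the antibody or both, with 3 libraries for each group and tissue.

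Both groups compared here were *Ob/Ob* mice, which lack leptin and become obese. They had been irradiated with 700 cGy and then 400 cGy and had received *Shp2*E76K/+;LysM-Cre+ BM cells that carry CD45.2, together with an equal number of BM cells of Boy/J mice that carry CD45.1. LysM-Cre acts mainly in myeloid cells, so the mutant allele is switched on there and the Boy/J competitor cells stay unmutated. Beinaglutide was injected under the skin at 3 mg/kg for 30 days from 8 weeks after transplantation, and the Vehicle group had the same schedule without the drug. The labels give an age of about 12 to 14 weeks without saying at which stage, and mice treated from 8 weeks after transplantation for 30 days were older when collected if that was their age as recipients. C57BL/6J is labelled as the genotype of every sample, also of the *Ob/Ob* recipients. Each group had 3 libraries labelled as biological replicates, and the labels do not say whether a library pools mice. Standard errors and FDRs below therefore measure the spread between libraries, which need not be the spread between mice. The ATMs were F4/80+ cells sorted from visceral fat, so a library can hold mutant donor cells, competitor cells and host cells that survived irradiation, and the counts do not separate them.

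GLP-1R is the G protein-coupled receptor of glucagon-like peptide-1, a gut hormone released after meals. In pancreatic β cells it raises cAMP and promotes insulin release, in the brain it lowers food intake, and its agonists are used against diabetes and obesity. Macrophages of obese fat clear lipid and dying adipocytes, and release cytokines and chemokines that draw in further leukocytes. Interferons act on such cells through JAK kinases and STAT factors and induce antiviral genes together with chemokines that attract T cells.

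The Vehicle libraries held 27229278 to 30195059 counts on genes and the GLP-1R agonist libraries 25673711 to 39778889. The genes listed at 0 counts numbered 2177 to 2290 in each Vehicle library and 424 to 728 in each GLP-1R agonist library. Values below are normalized counts, which are counts divided by the library size after TMM scaling and multiplied by the mean of that size over the 15 ATM libraries. On log2 normalized counts, the lowest correlation across genes was 0.933 within Vehicle and 0.945 within the GLP-1R agonist group, and the highest between a library of each group was 0.786. The biological coefficient of variation was 32.5% over all genes, and the median over genes fell from 98.5% in the lowest class of expression to 5.26% in the highest, so a change of a rarely counted gene is known with less precision.

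A gene was called when edgeR's quasi-likelihood test gave a Benjamini-Hochberg false discovery rate (FDR) below 0.05 and the fitted log2 change was beyond 1 in either direction, and "rose" and "fell" below are kept for called genes. Of the 17059 genes, 3553 rose (20.8%) and 1864 fell (10.9%) with the GLP-1R agonist, 31.8% in all. The numbers of genes that rose or fell in a list below are to be read beside these shares. Of the called genes 65.6% were higher, and without a scaling factor 4298 were higher and 1468 lower (74.5% higher). The median log2 change of all genes was 0.19, and it was 0.41 without a scaling factor and 0.14 with the size factors of DESeq2, so this median moved by 0.22 or less with the choice of scaling. Genes without counts in a group could move by other amounts, as *Xist* did (log2 -13.29, or -12.99 without a scaling factor). The 3 libraries of the groups did not overlap for 59.4% of genes (34.7% higher with the agonist, 24.7% lower). In the Vehicle libraries 982 of the 3553 genes that rose had no counts at all, whereas 67 of the 1864 genes that fell had none in the GLP-1R agonist libraries.

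**Figure D1:**
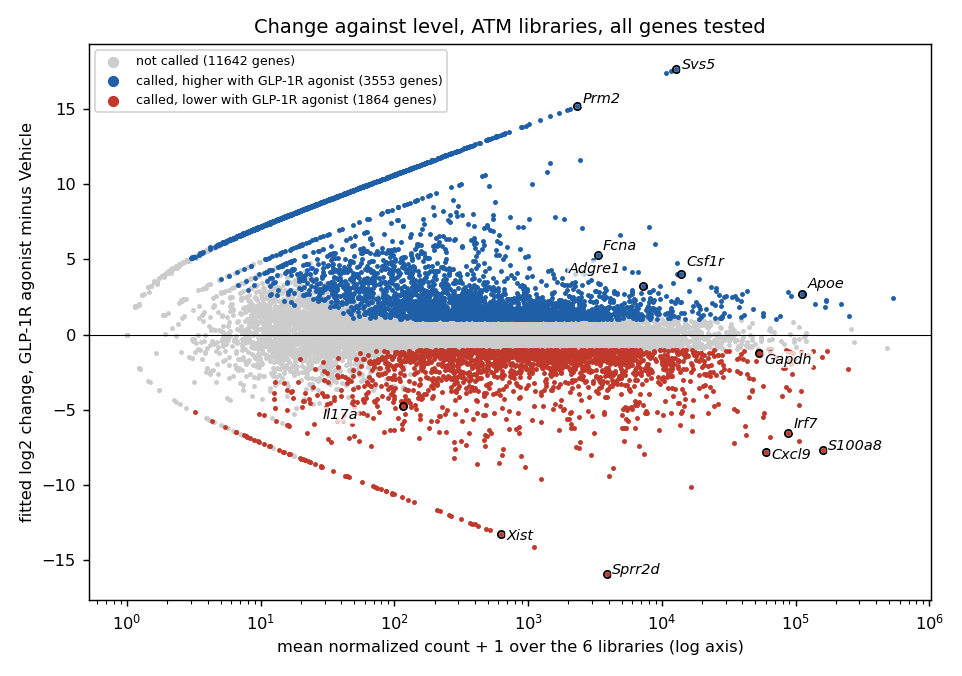
Fitted log2 change (GLP-1R agonist minus Vehicle, y axis) against the mean normalized count plus 1 over the 6 ATM libraries (x axis, log scale) for each of the 17059 genes, with 3553 called higher in blue, 1864 called lower in red and the rest in grey. *Svs5* and *Prm2*, which had no counts in Vehicle, and *Sprr2d* and *Xist*, which had none with the agonist, lie at the outer edges, and *S100a8*, *Irf7* and *Cxcl9* lie among the most counted of the genes that fell.

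The sort was made on F4/80, the product of *Adgre1*, which is encoded on chromosome 17 at 57358691 to 57483527 (GRCm38). *Adgre1* held 1002, 1738 and 1471 normalized counts in the Vehicle libraries and 12450, 13000 and 13370 with the agonist. Every agonist library lay above every Vehicle library, and the gene rose 9.23-fold (log2 3.21 ± 0.136 SE, FDR 1.45e-11). *Csf1r*, the receptor of the growth factor on which macrophages depend, rose 16.5-fold, from 1659, 1804 and 1274 to 26420, 25170 and 26560. Of 15 macrophage identity genes 10 rose, 1 fell and 4 were not called, with a median log2 change of 1.54. Their summed level was 117400 to 125600 in Vehicle and 389500 to 406200 with the agonist. It was 168900 to 177600 in WT, 563000 to 569500 with anti-IL-17A and 409400 to 412800 in Combo, so Vehicle was the lowest of the 5 groups. *Lyz2*, which encodes lysozyme, rose 6.53-fold, and *C1qa*, a subunit of complement C1q, rose 3.41-fold. The member that fell was *Fcgr1*, an Fc receptor that interferon-γ induces (5828, 4893 and 5589 against 639, 647.6 and 606.5, log2 -3.11 ± 0.102 SE). Exons of *Csf1r* overlap another gene over 15.1% of their bases, and the authors' counting credited such reads to each gene. In a bulk library fewer cells of a type and less RNA per cell cannot be told apart.

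Markers of cells other than macrophages also differed between the groups. All 11 neutrophil genes measured fell, with a median log2 change of -5.73, and their summed level went from 729300 to 772700 in Vehicle down to 8834 to 9353 with the agonist. *S100a8* encodes a calcium-binding alarmin that neutrophils store, and lies on chromosome 3 at 90668978 to 90670035. It held 329600, 306900 and 318200 normalized counts in Vehicle and 1505, 1531 and 1553 with the agonist, a 208-fold fall (log2 -7.70 ± 0.0462 SE, FDR 1.76e-21). *Ltf*, which encodes lactoferrin, fell 150-fold, and *Cxcr2*, the receptor for neutrophil chemoattractants, fell 45.0-fold. *Ngp*, a gene of neutrophil granules, fell 102-fold, from 85260, 84890 and 84970 to 875.9, 734.3 and 887.5. The other ATM groups had mean *S100a8* levels of 1940 (WT, SD 80.1), 3443 (anti-IL-17A, SD 122) and 121700 (Combo, SD 2310), so Vehicle was the highest of the 5 groups and Combo the next.

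Fibroblast genes moved in the opposite direction, and 10 of 12 rose (median log2 2.04). Their summed level went from 214500 to 229000 in Vehicle up to 842900 to 857700 with the agonist. This was above the sum of the macrophage identity genes in both groups, and in Vehicle the neutrophil sum was also above it. The lists hold different genes, so these sums do not count cells. *Dcn*, which encodes the matrix proteoglycan decorin, held 82070, 85850 and 87120 normalized counts in Vehicle and 354300, 361700 and 350300 with the agonist, a 4.18-fold rise. Of 11 T cell genes 9 rose (median 1.71), among them *Cd3e*, a chain of the T cell receptor complex (3.72-fold), and *Cd8a*, the coreceptor of cytotoxic T cells (18.5-fold, from 18.70, 88.06 and 86.81 to 1251, 1104 and 1189). Of 10 genes of NK and cytotoxic cells 7 rose, and *Nkg7*, a gene of cytotoxic granules, went from 976.5, 990.7 and 1129 to 3478, 3392 and 3356. Of 10 endothelial genes 6 fell and 1 rose (median -1.86), and *Cdh5*, the cadherin of vessel walls, fell 6.75-fold. *Alas2*, which starts haem synthesis in red cell precursors, fell 4.55-fold from a level of 218400 to 222300, and its exons share 15.5% of their bases with other genes. Of 10 mesothelial genes 7 rose and 1 fell, and *Lrrn4*, which marks the lining of the peritoneum, rose 9.77-fold. Their summed level was not higher, at 12040 to 13430 in Vehicle and 11070 to 11520 with the agonist, and the member that fell was *Krt19*, an epithelial keratin (5863, 4827 and 5016 against 1439, 1432 and 1467). The part of these cells in the results below was not tested.

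**Figure D2:**
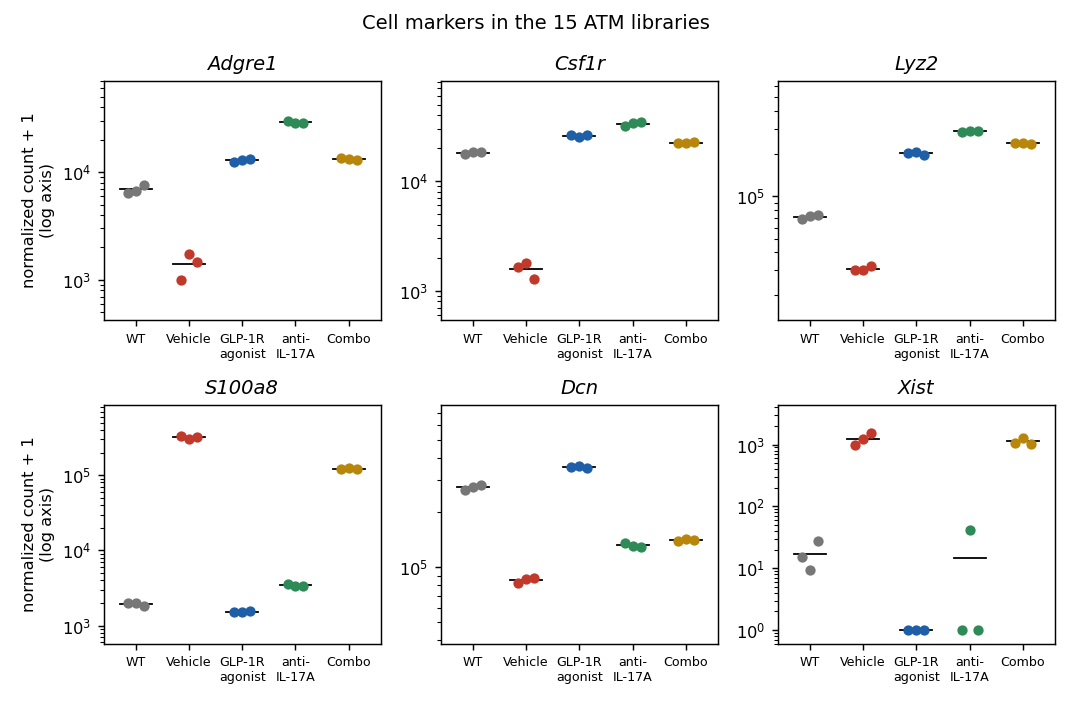
Normalized counts (y axes, log scale) of *Adgre1*, *Csf1r*, *Lyz2*, *S100a8*, *Dcn* and *Xist* in each of the 15 ATM libraries by group, 1 point a library. The GLP-1R agonist libraries lie above the Vehicle libraries for the 3 macrophage genes and for *Dcn*, and below them for *S100a8*, and *Xist* was listed at 0 in all 3 agonist libraries.

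The labels describe groups matched for age and sex, and sex-linked genes differed between them. *Xist*, the RNA that silences an X chromosome in female cells, had 747, 830 and 1024 counts in the Vehicle libraries and 0 in each GLP-1R agonist library, at least 388-fold lower against a floor of 3 counts per library. All 4 Y-linked genes rose (summed level 731.9 to 959.9 against 7566 to 8349), and *Ddx3y*, a helicase gene of the Y chromosome, went from 537, 515.2 and 247 to 5156, 5731 and 5459. Each Vehicle library carried both *Xist* and Y-linked transcripts, whereas the agonist libraries carried only the latter. Whether the libraries of a group came from separate mice was not tested. *Xist* was also low in the WT (mean 16.3, SD 9.03) and anti-IL-17A libraries (13.5, SD 23.4) and high in Combo (1129, SD 119). In BM the same pair of groups differed in the same direction, with *Xist* at a mean of 6544 in Vehicle and 2.17 with the agonist. Exons of *Xist* share 12.6% of their bases with other genes, *Tsix* on the opposite strand among them, and the counting did not use strand. Sex, of the recipients or of the marrow cells that they received, and treatment therefore cannot be told apart in this comparison.

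Many of the genes with the largest changes by size are known from reproductive and mucosal tissues. Among the 12 largest rises were *Svs5*, *Svs2*, *Svs4* and *Svs6*, genes of the seminal vesicle, and *Prm2*, *Akap4*, *Oaz3* and *Smcp*, genes of maturing sperm. *Svs5* had no counts in any Vehicle library and 26000, 25950 and 24480 normalized counts with the agonist, at least 5920-fold higher. *Svs2* was at least 5450-fold higher, *Prm2*, which packs sperm DNA, at least 1080-fold, and *Akap4*, a scaffold of the sperm tail, at least 949-fold. All 6 seminal vesicle genes rose (median log2 15.95, or 11.16 with the 5 genes lacking counts in Vehicle at their bound), and the summed level was 0 to 5.87 in Vehicle and 74890 to 78160 with the agonist. All 16 genes of a spermatid and testis list rose (816.1 to 1093 against 35000 to 35710), but that list was written after such genes had been seen. The 12 largest rises also held *Slc9a9*, a sodium and proton exchanger, which had no counts in Vehicle and 2206, 2132 and 1760 normalized counts with the agonist, with means of 1387 in WT, 2003 with anti-IL-17A and 1544 in Combo, so Vehicle stood apart from the other 4 ATM groups. It also rose in BM (log2 2.05), from a mean of 103.7 to 430.5. The *Svs* genes have close relatives in the genome, and 55.8% of the exon bases of *Oaz3* are shared with other genes.

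Among the 12 largest falls were *Chil4*, a chitinase-like gene, *Sprr2d* and *Krt13*, genes of stratified epithelium, *Sftpd*, a surfactant protein, *Gp2*, a glycoprotein of secretory and mucosal cells, and *Xist*. *Itgb2l*, an integrin-like gene of neutrophils, was among them too, at 651.9, 365.5 and 848.6 against 0 in each agonist library, and its BM mean was 16000 in Vehicle and 14810 with the agonist. *Chil4* held 8036, 8156 and 8045 normalized counts in Vehicle and none with the agonist, at least 2510-fold lower, and *Sprr2d* was at least 2400-fold lower (7829, 7657 and 7735 against 0). *Sftpd* was at least 681-fold and *Gp2* at least 321-fold lower. All 16 genes of a list for mucosal and reproductive epithelium, also written after such genes had been seen, fell, from a summed level of 61080 to 66650 down to 82.9 to 126. Seminal vesicle and spermatid transcripts were thus higher in every agonist library than in every Vehicle library, and epithelial transcripts the reverse. These transcripts were not particular to the agonist group, since anti-IL-17A libraries held 13550 to 15000 on the seminal vesicle list and 46490 to 50190 on the spermatid list, more than the agonist libraries on the latter, and WT libraries held 7527 to 7829 on the spermatid list. Combo libraries held 17090 to 18000 on the epithelial list. The part of tissue that came with the fat, and of its sex, in the comparison was not tested.

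Interferon-stimulated genes were among the most counted genes that fell. All 20 of this list fell (median log2 -4.91, range -7.94 to -2.47), against 10.9% of all genes. The libraries of the groups did not overlap for any of them, and 24.7% of all genes were lower without overlap. *Irf7*, the transcription factor that amplifies type I interferon responses, is encoded on chromosome 7 at 141262706 to 141266481. It held 174400, 169600 and 174800 normalized counts in Vehicle and 1916, 1760 and 1891 with the agonist, a 93.1-fold fall (log2 -6.54 ± 0.0787 SE, FDR 7.08e-18). *Ifit3*, which binds to other IFIT proteins on viral RNA, fell 67.7-fold, from 85090, 83000 and 81420 to 1264, 1133 and 1281. *Isg15*, a ubiquitin-like modifier, fell 30.2-fold (66730, 65170 and 70590 against 2385, 2250 and 2068). *Rsad2*, whose enzyme makes a chain-terminating nucleotide, fell 25.6-fold, and *Bst2*, which tethers budding virus to the cell, fell 27.0-fold. *Ifit1*, which recognizes foreign RNA caps, fell less, 10.7-fold, from 108200, 101900 and 105400 to 10120, 9896 and 9347.

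The 20 genes summed to 1028000 to 1046000 in the Vehicle libraries, 41560 to 42560 with the agonist, 40630 to 43660 in WT, 25010 to 26080 with anti-IL-17A and 39670 to 41050 in Combo. Every Vehicle library lay above every library of the other 4 groups. Of genes that carry the signal, *Irf9*, the DNA-binding part of the type I complex, fell 7.33-fold. Of 17 genes of the interferon-γ response 16 fell and 1 was not called (median -3.02). *Gbp2*, a GTPase directed against intracellular microbes, fell 33.9-fold, from 73860, 69920 and 70480 to 2484, 1840 and 1984. *Psmb8*, a subunit of the immunoproteasome, fell 6.49-fold, and *Tap1*, which carries peptides to MHC class I, fell 4.92-fold. *Irf1*, a factor that interferon-γ induces, fell 4.10-fold. *Gbp*, *Ifit* and *Oas* genes belong to families of close relatives, so reads may be split among members.

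Promoters of the interferon-responsive genes are shown because 20 of 20 members fell together. The interferon-stimulated response element (ISRE) was searched as GAAA, any 2 bases and GAAA again, on both strands, with overlapping matches kept, in RefSeq windows of 250 bases before to 50 bases after each start (GRCm38.p6). It was found in 1131 of 32851 windows (3.44%). Of the 20 interferon-stimulated genes 14 had a window, and 8 of their 16 windows (50%) held a match, those of *Isg15*, *Ifit1*, *Ifit3*, *Oas1a*, *Oas3*, *Rsad2*, *Stat2* and *Bst2*. Of the interferon-γ list 14 of 17 genes had a window and 8 of 17 windows (47.1%) held a match. The STAT site searched as TTCNNNGAA, which reads the same on both strands, was in 3 of 16 windows (18.8%) of the first list and 7 of 17 (41.2%) of the second, against 8.3% of all windows. A match is a description of these letters and not evidence of binding.

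The 250 bases before the start are printed for chr19:34583279-34583528 (plus strand), chr4:156200819-156201068 (minus strand), chr12:26456453-26456702 (minus strand) and chr5:92348890-92349139 (minus strand), in the order *Ifit3*, *Isg15*, *Rsad2* and *Cxcl10*, from 5′ to 3′ on the strand of the gene. These are examples and not the largest falls, since *Oas3* (log2 -4.91), *Oas1a* (-4.80) and *Bst2* (-4.75) fell more than *Rsad2* (-4.68) and are not printed. Capitals mark ISRE matches, 2 in *Ifit3*, 3 that overlap in *Isg15* and 1 each in *Rsad2* and *Cxcl10*.
Ifit3: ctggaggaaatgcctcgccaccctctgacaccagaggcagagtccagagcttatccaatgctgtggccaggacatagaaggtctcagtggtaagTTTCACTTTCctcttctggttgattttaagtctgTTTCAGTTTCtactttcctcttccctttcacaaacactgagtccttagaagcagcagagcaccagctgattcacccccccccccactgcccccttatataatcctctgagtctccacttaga
Isg15: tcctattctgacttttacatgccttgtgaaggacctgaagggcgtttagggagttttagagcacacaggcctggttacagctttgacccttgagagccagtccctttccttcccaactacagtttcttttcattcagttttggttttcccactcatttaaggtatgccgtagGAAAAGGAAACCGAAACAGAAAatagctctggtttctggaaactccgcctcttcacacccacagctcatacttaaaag
Rsad2: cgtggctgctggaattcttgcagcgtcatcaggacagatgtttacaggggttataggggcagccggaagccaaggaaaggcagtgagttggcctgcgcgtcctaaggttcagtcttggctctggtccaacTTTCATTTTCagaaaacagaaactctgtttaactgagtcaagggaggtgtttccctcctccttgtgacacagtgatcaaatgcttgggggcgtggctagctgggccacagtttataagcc
Cxcl10: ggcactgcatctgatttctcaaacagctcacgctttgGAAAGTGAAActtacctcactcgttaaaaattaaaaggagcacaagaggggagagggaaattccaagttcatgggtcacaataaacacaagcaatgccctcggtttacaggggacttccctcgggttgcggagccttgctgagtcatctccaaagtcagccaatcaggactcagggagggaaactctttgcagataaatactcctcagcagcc

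In *Isg15* the stretch of 3 overlapping matches begins 78 bases before the start, and the single match of *Cxcl10* begins 213 bases before it. In *Ifit3* the first match begins 156 bases and in *Rsad2* 120 bases before the start.

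Of 27 chemokine genes 16 fell and 4 rose (median -1.19). All 3 genes for ligands of CXCR3, the receptor of activated T cells, fell. *Cxcl9*, on chromosome 5 at 92321347 to 92328079, held 113500, 119500 and 126000 normalized counts in Vehicle and 494.7, 630 and 497.4 with the agonist, a 223-fold fall (log2 -7.80 ± 0.118 SE, FDR 5e-17). Its neighbour *Cxcl10* fell 13.1-fold, from 160000, 163300 and 177000 to 11880, 13460 and 12820, and *Cxcl11* fell 773-fold (2226, 2482 and 2702 against 0, 1.36 and 6.98). The log2 change of *Cxcl11* was -9.59, and -11.78 without GLP-1R agonist replicate 3. The annotation lists *Cxcl11* as a polymorphic pseudogene, and 41.7% of its exon bases are shared with a gene on the other strand. *Cxcr3* itself rose 5.51-fold. The monocyte chemoattractant *Ccl2* fell 4.62-fold, from 131400, 125800 and 140800 to 28240, 29110 and 28730, and *Ccl5*, which T cells and macrophages release, fell 5.64-fold. *Cxcl1*, a neutrophil chemoattractant, was not called (57100, 56000 and 62730 against 50290, 52020 and 55020, log2 -0.16, or 0.06 without a scaling factor). *Pf4*, a chemokine of platelets and resident macrophages, rose 7.30-fold, and *Cxcl12*, which holds leukocytes in tissue, rose 3.10-fold. Of the receptors, *Ccr1* fell 7.33-fold and *Ccr2*, the receptor of CCL2 on monocytes, rose 4.73-fold.

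**Figure D3:**
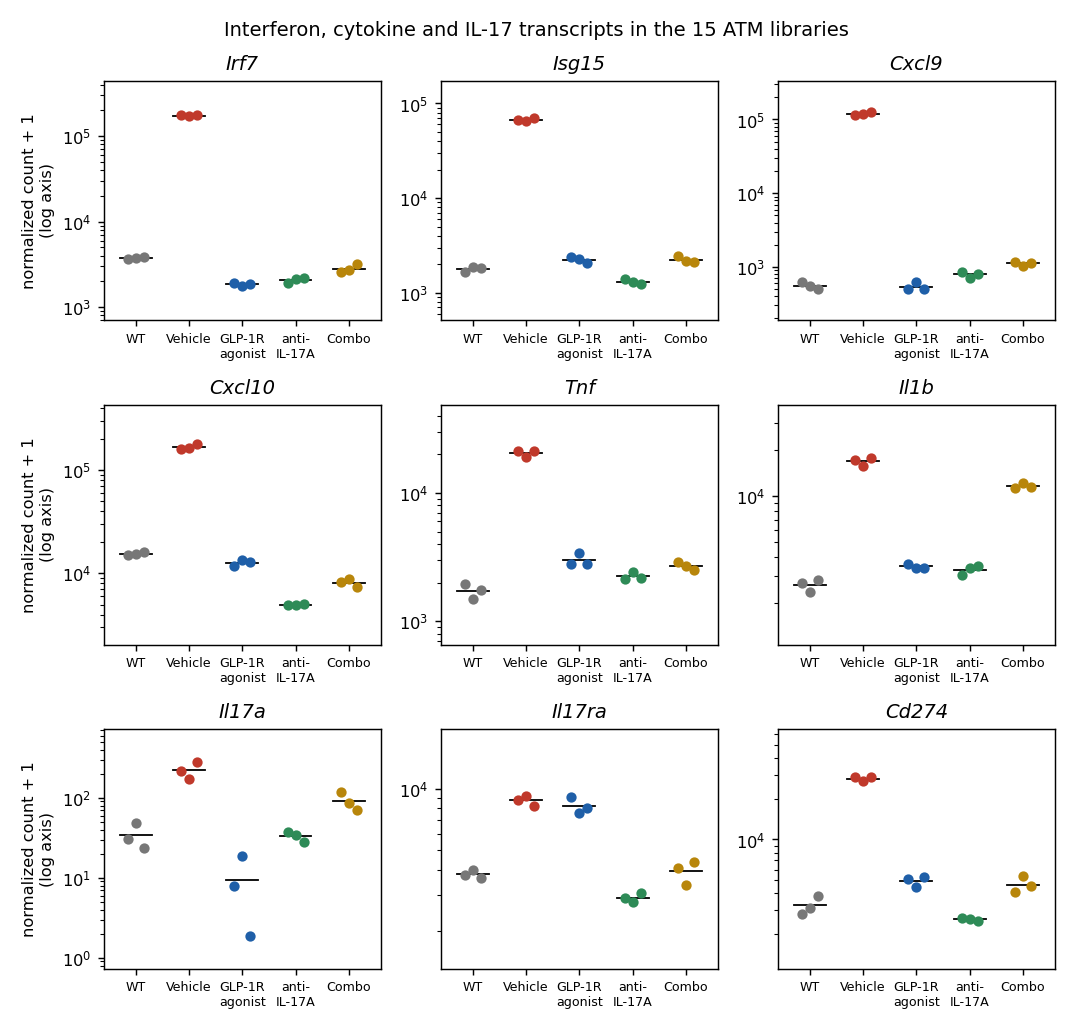
Normalized counts (y axes, log scale) of *Irf7*, *Isg15*, *Cxcl9*, *Cxcl10*, *Tnf*, *Il1b*, *Il17a*, *Il17ra* and *Cd274* in each of the 15 ATM libraries by group, 1 point a library. The agonist libraries lie below the Vehicle libraries without overlap for all of them except *Il17ra*.

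Of 16 genes of classical activation and cytokines 12 fell and none rose (median -2.05). *Saa3*, an acute-phase protein that macrophages make, fell 44.4-fold, from 118300, 105100 and 114200 to 2685, 2356 and 2562. *Irg1*, now named *Acod1*, whose enzyme makes itaconate, fell 24.4-fold, and *Nos2*, the inducible nitric oxide synthase, fell 30.5-fold. *Tnf* fell 6.89-fold (21230, 19210 and 21220 against 2799, 3373 and 2781) and *Il1b* fell 4.86-fold (17080, 15740 and 17620 against 3593, 3404 and 3390). The receptor antagonist *Il1rn* fell with it, 3.29-fold. *Il6* was not called (18770, 17120 and 19390 against 13730, 13790 and 13790, log2 -0.42 ± 0.0765 SE), and in the IL-6, JAK and STAT3 list 1 of 14 genes rose and 1 fell.

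Of 20 genes of the IL-17 axis 7 fell and none rose (median -0.80). *Il17a*, the cytokine of Th17 cells on chromosome 1 at 20730905 to 20734496, had 159, 117 and 186 counts in the Vehicle libraries and 7, 13 and 1 with the agonist, and fell (log2 -4.74 ± 0.759 SE, FDR 7.6e-05). The change was -5.80 without GLP-1R agonist replicate 2, so 1 library moved it by over 1.5-fold. *Il17ra*, the receptor subunit shared by the family, was not called (8775, 9241 and 8259 against 9060, 7612 and 8078, log2 -0.09 ± 0.0876 SE, or 0.13 without a scaling factor). Of genes that IL-17 induces, *Lcn2*, an iron-binding protein that neutrophils also store, fell 112-fold (130900, 122600 and 131500 against 1068, 1198 and 1167), *Cxcl5* fell 10.4-fold, and *Nfkbiz*, a cofactor of IL-17 responses, fell 2.34-fold. In the TNF and NF-kB list 4 of 18 fell (median -0.73), among them *Nfkbia*, the inhibitor that NF-kB itself induces (3.80-fold), and *Vcam1*, an adhesion molecule (3.32-fold).

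Of 13 checkpoint genes 5 rose and 4 fell (median 0.29). *Cd274*, which encodes PD-L1, held 28740, 27000 and 28860 normalized counts in Vehicle and 5122, 4486 and 5260 with the agonist, a 5.69-fold fall (log2 -2.51 ± 0.11 SE, FDR 2.16e-11). Its exons share 14.1% of their bases with a gene on the other strand. *Lgals9*, a ligand of TIM-3, fell (log2 -3.70), from 87420, 86400 and 88630 to 6974, 6703 and 6575. Receptors of T cells moved the other way, and *Pdcd1*, which encodes PD-1, rose 3.28-fold (1730, 1814 and 1889 against 5913, 6167 and 5757) and *Tigit* rose 4.34-fold. These rises stood beside those of the T cell genes given above.

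Genes of resident tissue macrophages rose most among the macrophage states, 11 of 17 with none falling (median log2 2.80). *Sepp1*, now named *Selenop*, which carries selenium, went from 23330, 21230 and 21340 to 153500, 151600 and 155100, a 6.98-fold rise (log2 2.80 ± 0.0361 SE, FDR 1.13e-17). *Fcna*, a ficolin of resident macrophages, rose 39.6-fold (109.5, 204 and 176.6 against 6470, 6656 and 6200). *Cd209f*, a lectin gene, had no counts in Vehicle and 400, 235 and 464 with the agonist, at least 86.9-fold higher. *Folr2*, a folate receptor, rose 6.39-fold and *Gas6*, which bridges dying cells to phagocytes, rose 4.94-fold, but 63.1% of the exon bases of *Folr2* and 15.4% of those of *Sepp1* are shared with other genes. *Igf1*, a growth factor that such cells secrete, rose 10.5-fold, from 607.8, 595.9 and 570.3 to 5900, 6515 and 6198.

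Of 17 lipid-associated macrophage genes 11 rose and 1 fell (median 1.69), beside a median of 1.54 for macrophage identity genes. The lipid-associated list summed to 559200 to 574000 in Vehicle and 1017000 to 1043000 with the agonist. It summed to 221800 to 228700 in WT, 1330000 to 1342000 with anti-IL-17A and 763400 to 769500 in Combo. How far these genes followed the macrophage identity genes was not tested. *Gpnmb*, a lysosomal glycoprotein of lipid-laden macrophages, held 27200, 25330 and 26390 in Vehicle and 158500, 157700 and 156100 with the agonist, a 5.98-fold rise. *Trem2*, the lipid receptor of these cells, rose 6.61-fold (1866, 1537 and 1341 against 10570, 10350 and 10450). *Lpl*, which releases fatty acids from lipoproteins, rose 6.03-fold, *Lipa*, the lysosomal lipase, 5.78-fold, and *Ctsd*, a lysosomal protease, 3.53-fold, with 34.4% of its exon bases shared with another gene. *Spp1*, which encodes osteopontin, was not called (14290, 14520 and 14550 against 14200, 15990 and 13670). The member that fell was *Fabp4*, a fatty acid carrier of adipocytes, macrophages and vessels, 3.28-fold from 130100, 132000 and 138500 to 40910, 40530 and 40600.

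The alternative activation list split, with 4 of 15 genes rising and 6 falling (median -0.59). *Mrc1*, which encodes CD206, rose 16.1-fold (140.3, 177.6 and 470 against 4361, 4144 and 4117), and the log2 change of 4.01 ± 0.283 SE was 4.73 without Vehicle replicate 3. *Retnla*, a target of IL-4, rose 2.57-fold. *Arg1*, which encodes arginase, fell 4.50-fold (1841, 1409 and 1916 against 396.2, 437.6 and 318.5), *Chil3* fell 5.55-fold and *Tgm2*, a transglutaminase with 21.8% of its exon bases shared with other genes, fell 5.31-fold. *Chil3* is also expressed in neutrophils, whose genes fell. Of 10 monocyte genes 6 fell and 2 rose (median -1.87), with *Ly6c2*, the marker of inflammatory monocytes, 8.40-fold lower (18580, 17700 and 19020 against 2233, 2066 and 2282), while *Ccr2* rose.

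Of 12 MHC class II genes 7 rose and 1 fell (median 1.15). *H2-Ab1*, a chain of the class II molecule, rose 2.74-fold (15600, 15320 and 15660 against 41740, 43380 and 42470) and *Cd74*, the invariant chain, rose 2.36-fold (45280, 43230 and 47670 against 107200, 111000 and 103600). *Ciita*, which encodes their transactivator, was not called, at 92.2, 77.8 and 76.3 against 88.6, 90.8 and 91.6. The member that fell was *Cd40*, a costimulatory receptor, 3.64-fold. Of 21 proliferation genes 12 rose and none fell (median 1.12), at low levels. *Top2a*, a topoisomerase of dividing cells, rose 3.42-fold (172.3, 177.6 and 152.7 against 613.2, 504 and 601.3) and *Mki67* rose 2.11-fold, but was not called without Vehicle replicate 1 (log2 0.84) or GLP-1R agonist replicate 3 (0.94). *Bub1*, a spindle checkpoint kinase, had 0, 5 and 0 counts in Vehicle and 334, 214 and 192 with the agonist, and its log2 change of 6.71 was 11.07 without Vehicle replicate 2 and 6.11 without Vehicle replicate 1.

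**Figure D4:**
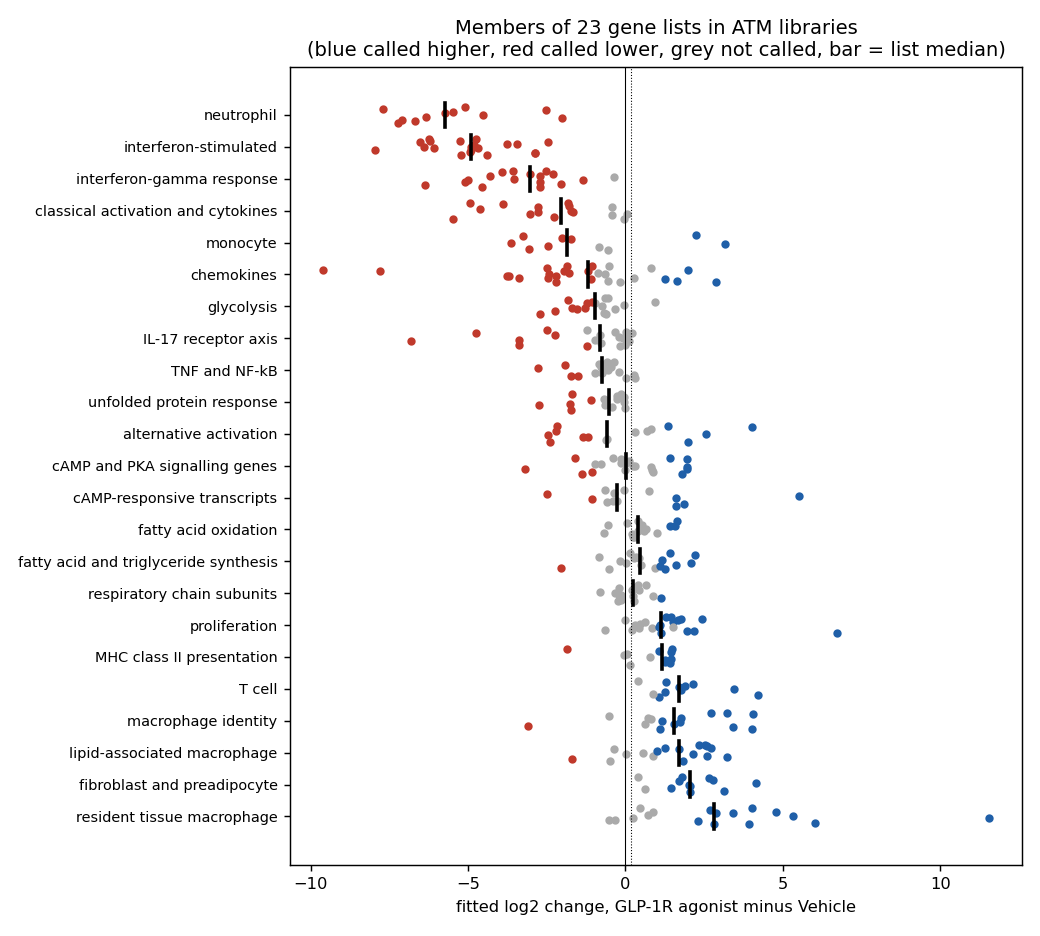
Fitted log2 change (x axis, GLP-1R agonist minus Vehicle) of each member of 23 gene lists (rows) in the ATM libraries, with called genes in blue (rose) and red (fell), genes not called in grey, the list median as a black bar and the median of all genes (0.19) as a dotted line. The medians run from -5.73 for neutrophil genes and -4.91 for interferon-stimulated genes to 2.80 for resident tissue macrophage genes.

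Of 18 genes of fatty acid and triglyceride synthesis 7 rose and 1 fell (median 0.45). *Fads1*, a desaturase, rose 4.59-fold (788.1, 553.3 and 1027 against 3755, 3693 and 3418), *Scd2* rose 4.24-fold and *Thrsp*, a regulator of lipogenesis, fell 4.12-fold. *Fasn*, the fatty acid synthase, rose 2.26-fold (754.8, 1319 and 975.9 against 2124, 2063 and 2689, log2 1.17 ± 0.192 SE), and was not called without Vehicle replicate 1, where the change was 1.00. Of 17 genes of fatty acid oxidation 3 rose (median 0.39), a smaller share than the 20.8% of all genes. *Acaa2*, a thiolase, rose 3.14-fold (2026, 2084 and 1560 against 5703, 6474 and 5647), *Hadh* rose 2.96-fold and *Acadm* rose 2.63-fold. *Cpt1a*, which admits fatty acids to mitochondria, was not called (log2 0.51 ± 0.097 SE), nor were *Etfa* (0.51 ± 0.069 SE) and *Etfb* (0.39 ± 0.0633 SE), the latter with 58.2% of its exon bases shared with other genes.

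Of 17 glycolysis genes 8 fell and none rose (median -0.98). *Slc16a3*, a lactate exporter, fell (log2 -2.72, 10770, 11020 and 10770 against 1497, 1714 and 1720), *Pfkl*, a phosphofructokinase, fell 4.71-fold and *Slc2a1*, the glucose transporter GLUT1, fell 3.27-fold. *Gapdh* fell 2.34-fold (73460, 73440 and 75320 against 32170, 32890 and 29880) and remained called under each scaling. Among LXR and PPAR genes 2 of 16 rose and 2 fell, a smaller share that rose than among all genes. *Apoe*, which carries lipid out of macrophages, rose 6.39-fold from 30470, 29770 and 30270 to 192100, 198900 and 187500, the smallest FDR of all genes that rose (2.74e-18), and *Pltp*, a phospholipid carrier with 19.3% of its exon bases shared, rose 4.44-fold. The receptor *Nr1h3* (LXRα) fell 2.16-fold (log2 -1.11 ± 0.145 SE), but its change was -0.89 and not called without a scaling factor. *Nr1h2* (LXRβ, log2 -0.45) and *Insig1*, a brake on sterol synthesis (log2 -0.12, or 0.10 without a scaling factor), were not called.

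In the list of lipolysis and lipid storage 5 of 15 genes fell and 1 rose (median -0.92). *G0s2*, an inhibitor of adipose triglyceride lipase, fell 26.6-fold (29960, 26560 and 28770 against 1039, 1138 and 1031), and *Pnpla2*, the lipase itself, fell 2.56-fold. Of 18 genes of cholesterol synthesis 1 rose, *Lss* at 3.38-fold, and of 16 respiratory chain genes 1 rose, *Ndufs1* at 2.21-fold. Stress genes fell in part, with 5 of 14 of the unfolded protein response lower and none higher. *Ddit3*, which encodes CHOP, fell 3.37-fold (6439, 6473 and 6629 against 1666, 2140 and 1990). *Hmox1*, which breaks down haem, rose 2.40-fold, and *Gsr*, glutathione reductase, fell 3.41-fold. Of the 13 antioxidant genes 2 rose and 2 fell, not far from the shares of 20.8% and 10.9% among all genes. Of 12 hypoxia genes 4 fell and 1 rose, with *Adm*, which encodes adrenomedullin, 2.96-fold lower.

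*Glp1r* itself and *Gip* were not among the 17059 genes of the ATM table, so no change is given for them. *Dpp4*, the protease that inactivates GLP-1, rose 6.83-fold (553, 369.9 and 230.5 against 2340, 3037 and 2538), with a mean of 8799 (SD 212) in WT. It is also a member of the fibroblast list, of which 10 of 12 genes rose, and which cells carried the rise was not tested. *Glp2r*, the receptor of the sister peptide, had 265, 230 and 251 counts in Vehicle and 0, 7 and 6 with the agonist. The log2 change of *Glp2r* was -6.20 ± 1.4 SE, and -6.98 without GLP-1R agonist replicate 2 and -5.60 without replicate 1. *Lepr*, the leptin receptor, fell 10.1-fold (1385, 1380 and 1741 against 115.5, 180.2 and 150.1). Of 23 genes of cAMP and PKA signalling 5 rose and 4 fell, shares not far from the 20.8% and 10.9% of all genes, and the median of 0.02 turned to -0.03 with the size factors of DESeq2. *Adcy4*, an adenylyl cyclase, fell 9.06-fold and *Pde4b*, a phosphodiesterase that degrades cAMP, fell 2.58-fold. Of 13 cAMP-responsive transcripts 4 rose and 2 fell (median -0.28). The groups did not overlap for 4 that were higher and 7 that were lower, against 34.7% and 24.7% of all genes. Their summed level went from 469300 to 479300 in Vehicle down to 309700 to 313700 with the agonist. *Dusp1* fell 2.1-fold (log2 -1.07 ± 0.0222 SE). *Nr4a2*, an immediate-early receptor, rose 3.62-fold (1970, 1739 and 1549 against 6463, 6309 and 6287) and *Crem* rose 3.05-fold. *Cebpb* fell 5.60-fold, with agonist libraries at 5782, 4816 and 10290, and 20.7% of its exon bases are shared with another gene.

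BM libraries of the same 2 treatment groups were used to test whether the change differed between tissues, with an interaction term and both tables joined over the 13076 genes that they share. Of these, 3478 differed (26.6%), 2114 with a more positive change in ATMs (16.2%) and 1364 with a more negative one (10.4%), and the median difference was 0.10. In BM alone 16.7% of genes were called (7.6% higher, 9.08% lower). BM libraries varied far less (biological coefficient of variation 3.51%), and with a separate weight for each tissue 3369 genes (25.8%) differed. BM and ATM libraries hold different mixtures of cells, so a difference in change need not lie in 1 cell type.

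Interferon-stimulated genes fell in both tissues, all 20 in BM as in ATMs, with median log2 changes of -5.98 and -4.91. *Irf7* fell by 6.30 on the log2 scale in BM and by 6.54 in ATMs, a difference of -0.25 that was not called. *Ifit1* fell by 7.76 in BM and by 3.43 in ATMs, so the ATM change was 4.33 ± 0.135 SE less negative (FDR 5.8e-20). *Cxcl10* likewise fell by 8.17 in BM and 3.71 in ATMs, and *Ccl2* by 6.75 and 2.21. Of 23 chemokine genes 16 had a less negative or more positive change in ATMs (2 the reverse), against 16.2% of all genes (10.4% the reverse). *Cxcl1* fell by 5.58 in BM from a mean of 35.9 normalized counts and was not called in ATMs.

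All 11 neutrophil genes had a more negative change in ATMs (median difference -6.13), against 10.4% of all genes. In BM 1 of the 11, *Retnlg*, rose by 2.04 and none fell. *S100a8* had means of 852200 and 507300 in BM (log2 -0.75, not called), so its change in ATMs was lower by 6.96 ± 0.124 SE. MHC class II genes differed in the opposite sense, with 11 of 12 more positive in ATMs, against 16.2% of all genes. *Cd74* rose by 1.24 in ATMs and fell by 1.34 in BM. *Csf1r* rose by 4.04 in ATMs and had a change of -0.44 in BM that was not called. Of 15 macrophage identity genes 12 had a more positive change in ATMs, again against 16.2% of all genes. *Il1b* fell by 2.28 in ATMs and rose by 1.69 in BM, and *Tnf* fell in ATMs and was not called in BM (log2 -0.59).

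**Figure D5:**
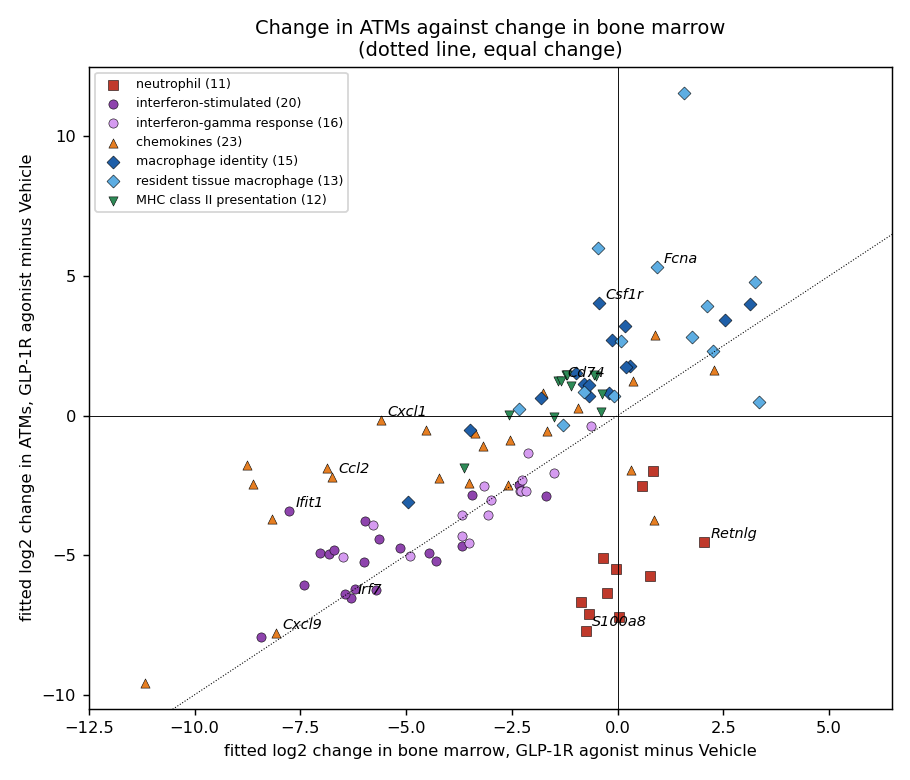
Fitted log2 change in ATMs (y axis) against that in BM (x axis), both GLP-1R agonist minus Vehicle, for members of 7 gene lists present in both tables, with the number of genes of each list in the key and a dotted line of equal change. Interferon genes lie at the lower left on both sides of the line, neutrophil genes lie below 0 in ATMs and between -0.86 (*Ngp*) and 2.04 (*Retnlg*) in BM, and all MHC class II and macrophage identity genes lie above the line.

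The GLP-1R agonist group was also compared with the anti-IL-17A group, the other single agent, at the doses the study used (3 mg/kg of beinaglutide, and 200 µg of antibody per mouse 3 times a week). This comparison shares the agonist libraries with the one above. Of 17059 genes 1382 were called (8.1%), 833 higher with the agonist (4.88%) and 549 lower (3.22%), with a median log2 change of -0.01 over all genes. Without a scaling factor 608 were higher and 771 lower, so the balance of directions in this comparison depended on the scaling.

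Of the 20 interferon-stimulated genes 5 were higher with the agonist and 3 lower (median -0.13), against 4.88% and 3.22% of all genes. The same shares stand beside the list counts that follow. None of the 17 interferon-γ genes was called. *Ifit1* was higher with the agonist (log2 2.44 ± 0.0637 SE), at 9347 to 10120 against a mean of 1803 (SD 190). *Il17ra*, not called against Vehicle, was higher with the agonist than with the antibody (log2 1.51 ± 0.0897 SE, FDR 4.99e-09), where its mean was 2898 (SD 145). Of 27 chemokine genes 8 were higher and 1 lower, with *Ccl2* at 1.87 and *Cxcl1* at 1.83 on the log2 scale. *Il6* was higher by 1.43, with a mean of 5099 (SD 379) under the antibody, and *Hmox1* by 1.51. *Adgre1* was lower with the agonist (log2 -1.17 ± 0.124 SE), as was *Ciita* (-2.53 ± 0.22 SE), which had a mean of 521.9 (SD 134) under the antibody. Of the proliferation genes 7 of 21 were lower and none higher. Lists of other organs differed here too, with 6 of 6 seminal vesicle genes higher with the agonist and 7 of 9 epididymis genes lower.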

How the data were processed

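RNA of sorted ATMs and of BM was sequenced, and the gene counts deposited by the authors were used as they stand. Per the study's methods and labels, the authors aligned reads to mm10 (GRCm38) with STAR 2.7.2a and counted uniquely mapped reads without strand using featureCounts 2.0.1, crediting a read that overlaps several genes to each. The ATM and BM tables were fitted with edgeR 4.0.16 (R 4.3.3, TMM scaling, quasi-likelihood test, Benjamini-Hochberg adjustment), with all 15 libraries of a table in its fit, and alternatives used DESeq2 1.42.0 and limma 3.58.1. filterByExpr removed 0 genes. A called gene had FDR below 0.05 and a log2 change beyond 1. The procedure was tested on simulated data. Each group had 3 libraries, labelled as biological replicates, and no column was left unmapped (0).

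Groups were taken from the labels. Genes were named by rule: the 12 largest called changes in each direction with a mean of at least 10 counts and no overlap between groups, the 5 smallest p-values in each direction, up to 6 called members of each list, 3 members of lists with no call, and genes the study discusses. *Stat2*, *Irf9*, *Irf1*, *Oas1a*, *Oas3*, *Cxcl11*, *Cxcl1*, *Cxcl12*, *Nos2*, *Il6*, *Trem2*, *Spp1*, *Ciita* and *Mki67* fall outside it and were chosen after their values were seen. Members and lists were chosen with earlier results of these data known, and the lists for spermatids and for mucosal and reproductive epithelium were added after values were seen. Gene positions and shared exon bases come from GENCODE M21 (GRCm38), promoters from RefSeq. Some genes are listed under older symbols, and some results are not reported here.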

Additional observations from a re-analysis of the deposited data

Results flagged for a closer look

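The change with the GLP-1R agonist differed between ATMs and BM for 3478 of 13076 genes in the interaction test, with FDR below 0.05 and a difference beyond 1 on the log2 scale. Of the genes named in the text, those below were in that set, and each value is the log2 change in ATMs minus that in BM. Among macrophage genes the change was more positive in ATMs for *Adgre1* (3.02), *Csf1r* (4.48), *Lyz2* (2.84), *C1qa* (1.46), *Fcgr1* (1.83), *Sepp1* (1.04), *Fcna* (4.38), *Cd209f* (10.03), *Folr2* (2.59), *Gpnmb* (2.13), *Lpl* (2.08), *Lipa* (2.78), *Ctsd* (1.96) and *Arg1* (5.68). Among macrophage genes the change was more negative in ATMs for *Fabp4* (-3.97) and *Chil3* (-1.30). Among genes of neutrophils and other cells the change was more positive in ATMs for *Dcn* (2.47), *Cd3e* (1.45), *Cd8a* (3.65), *Nkg7* (1.98), *Lrrn4* (1.62) and *Ddx3y* (2.22). Among genes of neutrophils and other cells the change was more negative in ATMs for *S100a8* (-6.96), *Ltf* (-7.27), *Cxcr2* (-5.48), *Ngp* (-5.81), *Retnlg* (-6.58), *Lcn2* (-5.51), *Alas2* (-3.81), *Chil4* (-15.11) and *Itgb2l* (-12.22). Among interferon genes and their signalling the change was more positive in ATMs for *Ifit3* (1.33), *Isg15* (2.11), *Ifit1* (4.33), *Gbp2* (1.40) and *Oas1a* (1.89). Among interferon genes and their signalling the change was more negative in ATMs for *Rsad2* (-1.01) and *Irf9* (-1.20). Among chemokines, cytokines and receptors the change was more positive in ATMs for *Cxcl10* (4.45), *Ccl2* (4.54), *Cxcl1* (5.41), *Pf4* (1.97), *Ccr2* (2.40), *Saa3* (4.99), *Nos2* (5.10), *Il1rn* (1.35) and *Il6* (1.84). Among chemokines, cytokines and receptors the change was more negative in ATMs for *Ccr1* (-1.89), *Tnf* (-2.20), *Il1b* (-3.98) and *Vcam1* (-2.27). Among checkpoint, MHC class II and proliferation genes the change was more positive in ATMs for *Pdcd1* (3.77), *Tigit* (3.55), *H2-Ab1* (2.64), *Cd74* (2.57), *Cd40* (1.77), *Top2a* (1.82) and *Bub1* (6.55). Among checkpoint, MHC class II and proliferation genes the change was more negative in ATMs for *Lgals9* (-1.72). Among metabolic, transport and stress genes the change was more positive in ATMs for *Fads1* (1.41), *Scd2* (2.14), *Fasn* (1.53), *Acaa2* (1.57), *Cpt1a* (1.08), *Apoe* (1.92), *Pltp* (1.93), *Hmox1* (2.03), *Slc9a9* (12.00) and *Adm* (2.38). Among metabolic and stress genes the change was more negative in ATMs for *Slc16a3* (-1.77), *Insig1* (-1.16), *G0s2* (-4.48), *Ddit3* (-1.16) and *Gsr* (-2.06). Among incretin, leptin and cAMP genes the change was more positive in ATMs for *Dpp4* (4.59), *Nr4a2* (1.96) and *Crem* (3.23). Among incretin, leptin and cAMP genes the change was more negative in ATMs for *Lepr* (-5.40) and *Adcy4* (-2.66). *Chil4* and *Itgb2l* had no counts in the agonist ATM libraries, and *Cd209f* and *Slc9a9* none in the Vehicle ATM libraries, so the size of their differences depends on the fit and is no bound. With a weight per tissue the difference of *Chil4* was -13.00, of *Itgb2l* -10.01, of *Cd209f* 7.60 and of *Slc9a9* 9.38. *Bub1*, with 0, 5 and 0 counts in Vehicle, had 7.10 with that weight, and *Cxcl1* had a mean of 0.584 normalized counts in agonist BM libraries. The groups of 3 libraries are too small for a test of single outlying libraries.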

How the results depend on the processing

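Between the GLP-1R agonist and Vehicle 5417 genes were called. The count was 3335 when every library had to hold at least 10 counts (1748 higher, 1587 lower), 9176 without the limit on fold change and 3689 when the test itself was made against a log2 change of 1. The other alternatives gave 4686 to 5766 genes, and leaving out 1 library at a time gave 5132 to 5421. For the difference between ATMs and BM, 6979 genes were called without the limit and 2018 by the test against a log2 change of 1, in place of 3478, and leaving out 1 library gave 3376 to 3604. Against anti-IL-17A the same settings gave 5084 and 310 genes in place of 1382, and leaving out 1 library gave 1215 to 1365. With a replicate block the 3 counts were 5319, 3474 and 1321. Same-numbered libraries did not deviate together (correlations 0.005, 0.008 and 0.001), so the shared numbers do not show pairing. The comparison without a scaling factor, which gave 5766, 3488 and 1379 genes, was added after seeing the data. No called gene named here changed direction. The log2 change of 4 genes that were not called differed in sign in some settings, to 0.13 for *Il17ra*, 0.10 for *Insig1* and 0.06 for *Cxcl1* without a scaling factor, and to -0.03 for *Spp1* with the size factors of DESeq2. The calls of 41 of 268 genes followed in these settings changed in at least 1, among them *Fasn* and *Nr1h3*. Counts near 0 limit what can be said of rarely counted genes, and of the 3553 genes that rose 1146 had at most 3 counts in every Vehicle library.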
